A study of Mus musculus with 4 samples.

Results

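The genes of the p38 and JNK stress kinases were examined in 32D (32Dcl3) cells, a murine hematopoietic line that normally needs interleukin 3 (IL-3) to survive. The set was named by gene symbol and held 10 genes, of which 9 were among the 23756 genes analysed, and Map2k6 was not analysed here. The set was selected on the counts of Mapk14 in these libraries, which had been seen nearly absent from 1 of them, and the other genes were taken by name as its pathway. The values of Mapk14 are therefore given as a description without a test. All libraries carried the Abl1 KO genotype, made with CRISPR/Cas9 guides delivered by lentivirus under puromycin selection. The Abl1-KO/IL3+ group (2 libraries) was kept with IL-3, and the Abl1-KO/IL3- group (2 libraries) consisted of cells growing without IL-3. The study derived its knockout cells as populations from separate guides and as single clones, and the labels do not tie a library to a guide, clone or time of withdrawal. Cells with intact Abl1 were not analysed here. The question put to these data was how expression differs between knockout cells that grow without the cytokine and those that still receive it.

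Mitogen-activated protein kinase (MAPK) cascades pass a signal through 3 layers of kinases. In the stress branches, MAP3 kinases phosphorylate MAP2 kinases. Map2k3 and Map2k6 then activate the p38 kinases (Mapk14, Mapk11, Mapk12 and Mapk13, also called p38 alpha, beta, gamma and delta). Map2k7 acts on the JNK kinases (Mapk8 and Mapk9, also called JNK1 and JNK2, and Mapk10), and Map2k4 can act on both branches. Mapkapk2, or MK2, is a kinase that p38 switches on and that controls the stability and translation of cytokine mRNAs. In blood cells these pathways respond to cytokines, inflammatory signals and damage. They are controlled mainly by phosphorylation, which mRNA levels do not measure.

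Each p38 and JNK kinase is activated by phosphorylation of a threonine and a tyrosine that are separated by a single residue. That residue is glycine in p38 kinases and proline in JNK kinases, and it is what a MAP2 kinase meets at its target. The coding bases around this site are shown because they separate the branches and because they show how far the paralogs differ, which bears on how reads were assigned. The 9 bases of the threonine, middle and tyrosine codons are in capitals, within 27 bases of the coding strand from the GENCODE release M21 transcripts (GRCm38).
Mapk14: gatgagatgACAGGCTACgtggctacc
Mapk11: gaggagatgACCGGATATgtggccaca
Mapk12: agtgagatgACAGGATATgtggtaacc
Mapk13: actgagatgACGGGCTATgtggtgacc
Mapk8: tttatgatgACGCCTTATgtggtgact
Mapk9: tttatgatgACTCCCTATgtggtaact

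The Mapk14 stretch lies at chr17:28728390-28728416 on the plus strand, in coding exon 7 of 12, with the threonine at position 180. The Mapk11 stretch lies at chr15:89145857-89145883 on the minus strand, also in exon 7 of 12. The Mapk8 stretch lies at chr14:33392994-33393020 on the minus strand, in exon 6 of 12. The middle codon is GGC or GGA in the 4 p38 genes and CCT or CCC in the 2 JNK genes. The coding sequences of Mapk14 and Mapk11 were identical at 71.2% of aligned bases, and the longest identical run was 20 bases. Between p38 and JNK genes the identity was 62.8% to 65.7%, and between Mapk8 and Mapk9 it was 75.1%. No window of 50 bases in the main coding transcript of Mapk14, Mapk11, Mapk13, Mapk8, Mapk9, Map2k3, Map2k4 or Mapkapk2 occurred in a transcript of another gene, on either strand. Map2k7 was the exception, with 82.4% of its windows shared with Gm49320, as described with its values.

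The libraries held 48953174 to 60382588 counts, so that 3 counts, taken as the floor, correspond to between 0.0465 and 0.0627 CPM (counts scaled to a common library size). CPM values given here were scaled by edgeR's TMM factors, which correct for library composition, and FPKM values, which also divide by gene length, were used to compare levels between genes. The labels call the cells both 32D and a pre-B-cell. Of 13 listed pre-B cell markers, 8 were analysed. Their sum was 79.7 and 29.9 CPM under IL-3, against 22.7 and 23.1 CPM in its absence. Rag1, a recombinase gene of developing lymphocytes, had 0 counts in 3 of the 4 libraries, whereas Cd79b had 607 to 1044 counts. Ighm had 3876 and 169 counts under IL-3, against 112 and 195 in its absence. The 14 myeloid progenitor markers summed to 5861 and 4051 CPM under IL-3, against 3490 and 2875 CPM in its absence. Mpo, which encodes myeloperoxidase, had 28978 to 121109 counts, whereas Kit had at most 4 counts and Elane 130 to 304. Markers of maturing neutrophils summed to 1332 and 506 CPM under IL-3, against 1143 and 5924 CPM in its absence. The sum stood apart in Abl1-KO/IL3- replicate 2, where Ngp alone had 4003 CPM. S100a8, S100a9, Ltf and Ly6g were higher in both libraries without IL-3. For S100a9 this was 7.14 and 1.64 CPM under IL-3, against 141 and 370 CPM in its absence. Ngp, Lcn2, Itgam and Cxcr2 had overlapping groups. The pre-B and myeloid progenitor sums were thus lower in both libraries without IL-3, as were most genes of the set. Most single markers did not follow these sums. Of the myeloid progenitor markers, only Mpo, Spi1 and Gfi1 were lower in both libraries without IL-3, and of the pre-B markers only Igll1. The others had overlapping groups in CPM, among them Ighm, Cd79b, Myb, Cebpa and Csf2rb2. Ighm alone had 60.1 of the 79.7 CPM of the pre-B sum in Abl1-KO/IL3+ replicate 1. Csf2rb2 had 1411 and 378 CPM under IL-3, against 485 and 463 CPM in its absence. Erythroid and megakaryocyte markers summed to 1030 and 12407 CPM under IL-3, against 5972 and 3307 CPM in its absence. Macrophage markers summed to 333 and 102 CPM under IL-3, against 187 and 725 CPM in its absence. Mast cell and basophil markers summed to 1444 and 250 CPM under IL-3, against 416 and 442 CPM in its absence. T cell markers summed to 0.838 to 5.94 CPM. Abl1 itself had 1322 and 2222 counts under IL-3, against 1544 and 2256 in its absence. Edited alleles can still be transcribed, so this level does not check the edit. The replicates within each group differed by far more than counting noise, with a mean chi-square per gene of 648 with IL-3 and 246 without. Nothing in the labels says that replicates are separate cultures beyond the statement of biological duplicates. In bulk RNA, fewer cells of a type and less RNA per cell cannot be told apart, and the part of any of these markers in the results was not tested.

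All 9 genes of the set passed the expression filter, and 6 of the 9 were lower in both Abl1-KO/IL3- libraries than in both Abl1-KO/IL3+ libraries. These were Mapk14, Mapk11, Mapk13, Map2k3, Map2k7 and Mapkapk2, which are 3 p38 kinases, 2 MAP2 kinases and the kinase downstream of p38. Across all 16535 genes tested, 17.9% were lower without overlap and 19.4% higher. Because the set was chosen with values of this comparison known, nothing is read from the difference between these shares. The JNK kinases Mapk8 and Mapk9 and the MAP2 kinase Map2k4 had overlapping groups, and no gene of the set was higher without overlap. No gene of the set had an adjusted p-value under 0.05, and neither did any of the 16535 genes (0% called by the quasi-likelihood test of edgeR, adjusted by Benjamini-Hochberg). Unadjusted p-values under 0.05 were reached by 978 genes (5.91%), among them 2 of the 9, and DESeq2's Wald test called 271 genes (1.64%), of which Mapk11 was the 1 gene of the set. Mapk11 passed the filter only through the libraries with IL-3, so its place in these counts was largely fixed by the filter. The median log2 fold change of the 9 genes in Abl1-KO/IL3- against Abl1-KO/IL3+ cells was -0.83, against -0.027 for all genes tested. Mapk11 had the lowest value of the 9 also at its bound of -4.51, so using the bound could not move the median. The 9 include Mapk14, whose values selected the set, so nothing is read from the difference between these medians. The count of 6 rested on 2 libraries a group. Abl1-KO/IL3+ replicate 1 stood highest of the 4 libraries for 7 of the 9 genes, Mapk8 and Map2k4 among them. The share of all genes that stood highest in that library was not counted, so nothing is read from the 7. The count lower without overlap was 6 without Abl1-KO/IL3+ replicate 1 (37.7% of all genes) and 8 without Abl1-KO/IL3+ replicate 2 (40.3%). It was 7 without Abl1-KO/IL3- replicate 1 (25.9%) and 6 without Abl1-KO/IL3- replicate 2 (30%). With scaling by library size alone it was 5 (15.5% lower and 21.5% higher over all genes), and on FPKM it was 6 (16.2% lower and 20.7% higher).

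**Figure D1:**
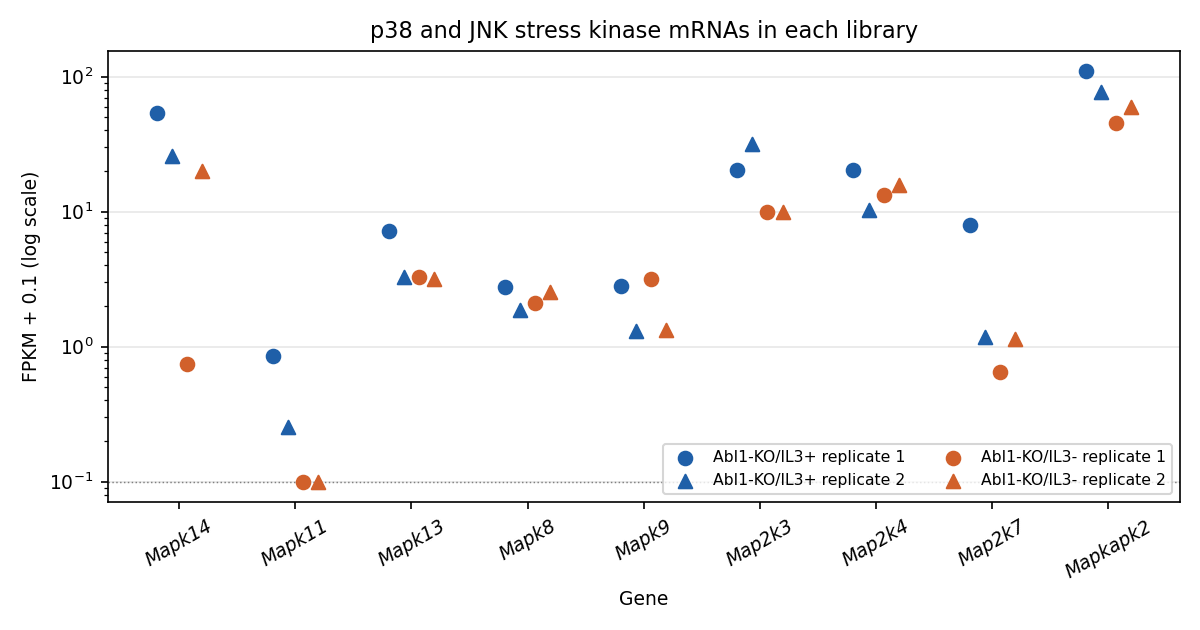
FPKM plus 0.1 on a log scale for each of the 9 genes in each of the 4 libraries, with blue for Abl1-KO/IL3+, orange for Abl1-KO/IL3-, circles for replicate 1 and triangles for replicate 2. The dotted line marks an FPKM of 0. Mapk14 in Abl1-KO/IL3- replicate 1 stands far below its other 3 libraries, Mapk11 lies at 0 in both libraries without IL-3, and Mapk8 and Map2k4 overlap between the groups.

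Mapk14, on chromosome 17 from 28691329 to 28748406, encodes p38 alpha, the main p38 kinase of most tissues. Its counts were 15878 and 7672 in Abl1-KO/IL3+ replicates 1 and 2, and 159 and 5500 in Abl1-KO/IL3- replicates 1 and 2. In CPM this was 246 and 141 under IL-3, against 3.32 and 94.8 in its absence. The single low library stood 28.5-fold below its own replicate and 42.5-fold and 74.1-fold below the libraries with IL-3. The other library without IL-3 was lower than both libraries with IL-3 as well, by 1.49-fold against the nearer one. The mean CPM without IL-3 was 25.3% of that with IL-3, and the edgeR log2 fold change of -1.98 became -1.03 without Abl1-KO/IL3- replicate 1 and -5.85 without Abl1-KO/IL3- replicate 2. Under a replicate block it was -3.37. At 159 counts Mapk14 was well above the floor, so it was detected in that library.

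The well expressed genes beside Mapk14 were not low in that library. Slc26a8, an anion transporter gene that lies 1095 bases before Mapk14 on the other strand, had 753 and 119 counts under IL-3, against 387 and 374 in its absence. On the other side, 20.9 kb away, lies Mapk13, with 561 counts in the library where Mapk14 had 159. Srpk1, which encodes a kinase of splicing factors, had 11834 counts there, against 8168 to 12458 in the other libraries. Relative to the median of the other 3 libraries, Abl1-KO/IL3- replicate 1 held 0.0235 times the CPM for Mapk14, 1.25 times for Slc26a8, 0.932 times for Mapk13 and 1.65 times for Srpk1. Brpf3, a chromatin reader gene, had 358 and 63 counts under IL-3, against 432 and 40 in its absence, so that its high libraries were the replicates numbered 1. Armc12, Lhfpl5, AC154912, AC140278, Pnpla1os and AC170998, which lies inside Mapk14, had 31 counts or fewer in every library. Mapk14 shares no exonic base with another gene in GENCODE release M21.

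**Figure D2:**
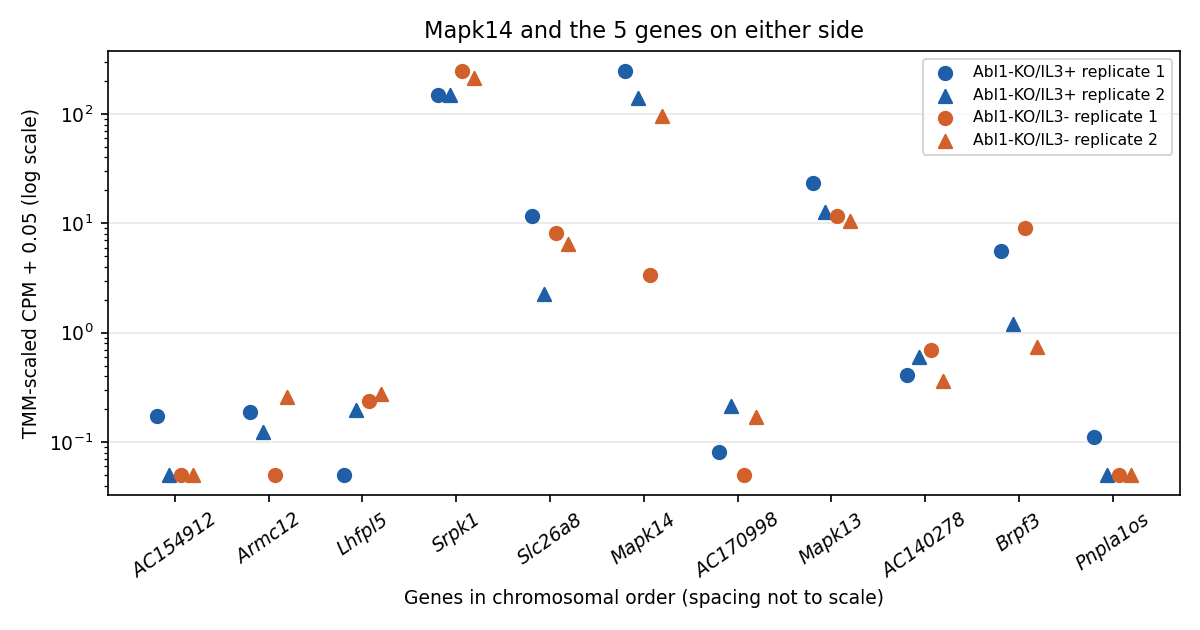
TMM-scaled CPM plus 0.05 on a log scale for Mapk14 and the 5 genes on either side of it, in chromosomal order with spacing not to scale, in the 4 libraries (blue with IL-3, orange without, circles replicate 1, triangles replicate 2). Mapk14 lies at 3.32 CPM in Abl1-KO/IL3- replicate 1, while Slc26a8, Mapk13 and Srpk1 stay near their other libraries.

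Such a gap in 1 library was not particular to Mapk14. A gene was called nearly absent from a library when its CPM there was at most 1/10 of the lowest of the other 3, each of which had at least 1 CPM. By this rule 60 of 11661 genes (0.515%) were nearly absent from Abl1-KO/IL3- replicate 1, and Mapk14 had the fourth highest level elsewhere (rank 4). From Abl1-KO/IL3- replicate 2 it was 31 genes (0.268%), and from Abl1-KO/IL3+ replicates 1 and 2 it was 28 (0.239%) and 53 (0.451%). Of the genes of the p38 and JNK lists described below, Mapk14 alone met the rule in any library. The 5 genes whose profile over the 4 libraries lay nearest to that of Mapk14, by Euclidean distance of centred log2 CPM among 12861 other genes, were Aff3, Spocd1, Maml3, Cfap97 and Snrk. Aff3, on chromosome 1, was the nearest at a distance of 0.416, with 4333 and 2214 counts under IL-3, against 31 and 1578 in its absence. Maml3, on chromosome 3, had 2797 and 1145 counts under IL-3, against 24 and 1418 in its absence. None of the 5 lies on chromosome 17.

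Mapk11, which encodes p38 beta, lies on chromosome 15 from 89142486 to 89149628. It was counted only with IL-3, with 147 and 31 counts, and had 0 counts in both libraries without IL-3. Set against a floor of 3 counts in a library, the lower of the libraries with IL-3 (0.570 CPM) was at least 9.10-fold higher than either library without it, and the mean with IL-3 at least 22.7-fold higher. Its level was low throughout, at 0.756 and 0.153 FPKM with IL-3, where 13.2% of tested genes had a lower mean. Mapk11 passed the expression filter only through the libraries with IL-3 and was set against a group at 0, so its values are a description and nothing is read from its tests. Mapk12, the p38 gamma gene, is not in the set but lies 1864 bases from Mapk11 on the same strand. It had 600 and 235 counts under IL-3, against 136 and 214 in its absence, a log2 fold change of -1.05 ± 0.58 (SE, edgeR adjusted p = 0.873), which was -0.39 without Abl1-KO/IL3+ replicate 1.

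Mapk13, which encodes p38 delta, lies on chromosome 17 from 28769297 to 28780233. It had 1494 and 684 counts under IL-3, against 561 and 611 in its absence, or 23.2 and 12.6 against 11.7 and 10.5 CPM. The gap between the groups was 1.07-fold, and with scaling by library size alone the groups overlapped. The log2 fold change was -0.68 ± 0.46 (SE, edgeR adjusted p = 0.899), and it was -0.16 without Abl1-KO/IL3+ replicate 1. Its libraries without IL-3 differed by 1.11-fold, against 28.5-fold for Mapk14.

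With these values the makeup of p38 mRNA differed in a single library. Summed over the 4 p38 genes, the level was 64.3 and 30.1 FPKM under IL-3, against 4.45 and 24.0 FPKM in its absence. Mapk14 made up 84.2% and 85.9% of the sum with IL-3 and 83.4% in Abl1-KO/IL3- replicate 2. In Abl1-KO/IL3- replicate 1 it made up 14.4%, while Mapk13 made up 71.3% and Mapk12 14.3%. The larger share of Mapk13 there came with no higher level of its own, since Mapk13 had 3.17 FPKM in that library and 3.08 in the other. Mapk11 contributed 1.18% and 0.510% with IL-3.

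**Figure D3:**
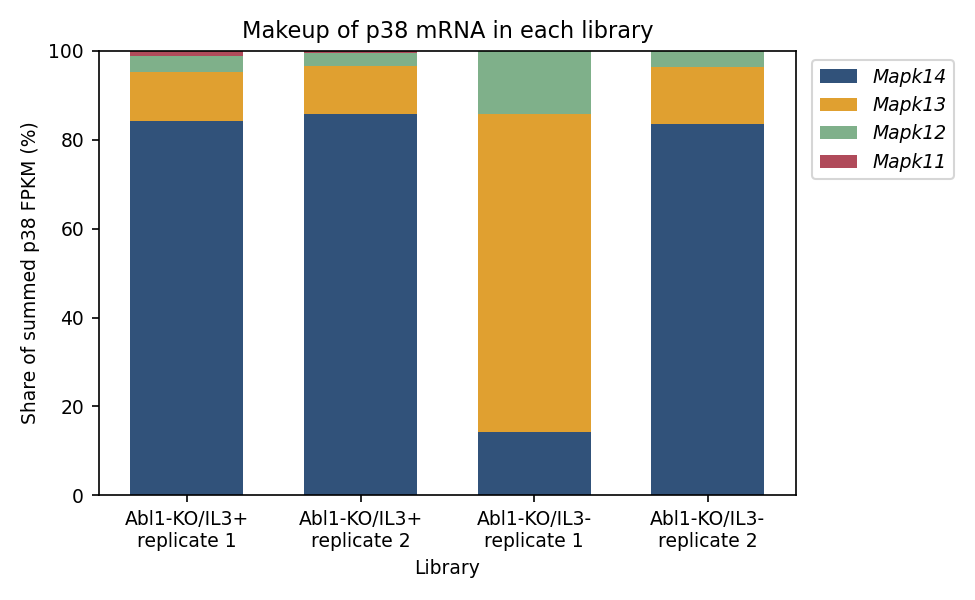
Share of each p38 gene in the summed FPKM of Mapk14, Mapk13, Mapk12 and Mapk11, in percent, as a stacked bar for each library. Mapk14 holds 83.4% to 85.9% in 3 libraries and 14.4% in Abl1-KO/IL3- replicate 1, where Mapk13 holds 71.3%.

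Both JNK kinases had overlapping groups. Mapk8, on chromosome 14 from 33377898 to 33447158, had 2064 and 1390 counts under IL-3, against 1297 and 1746 in its absence, or 32.0 and 25.6 against 27.1 and 30.1 CPM. The libraries differed by at most 1.25-fold, the smallest range in the set, and the log2 fold change was -0.01 ± 0.34 (SE, edgeR adjusted p = 0.999). Mapk9, on chromosome 11 from 49846751 to 49886421, had 1235 and 557 counts under IL-3, against 1172 and 520 in its absence. Its high libraries were those numbered 1 in either group, at 19.2 and 24.5 CPM, against 10.2 and 8.96 CPM in those numbered 2. The log2 fold change was 0.18 ± 0.64 (SE, edgeR adjusted p = 0.990). As a share of the summed FPKM of both genes, Mapk8 ranged from 39.6% in Abl1-KO/IL3- replicate 1 to 66.6% in Abl1-KO/IL3- replicate 2, with 49.8% and 59.7% in the libraries with IL-3. Mapk10, the JNK3 gene, was not analysed here. Whether the p38 and JNK genes differ in their fold change was not tested.

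Among the MAP2 kinases, Map2k3, the p38 activator on chromosome 11 from 60932033 to 60952811, had 4484 and 7108 counts under IL-3, against 1815 and 2055 in its absence. This was 69.6 and 131 CPM against 37.9 and 35.4 CPM, so the lowest library with IL-3 stood 1.83-fold above the highest without it. The libraries without IL-3 agreed within 1.07-fold, closer than those with IL-3, which differed by 1.88-fold. The log2 fold change was -1.45 ± 0.42 (SE, edgeR adjusted p = 0.729), one of the 2 values in the set with an unadjusted p under 0.05, and it ranged from -1.82 to -0.92 when each library was left out. Map2k4, on chromosome 11 from 65688243 to 65788297, had 6345 and 3212 counts under IL-3, against 3440 and 4561 in its absence. Its libraries without IL-3, at 71.9 and 78.6 CPM, lay between the libraries with IL-3, at 98.4 and 59.1 CPM. The log2 fold change was -0.07 ± 0.37 (SE, edgeR adjusted p = 0.995).

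Map2k7, the JNK activator on chromosome 8 from 4238740 to 4247897, had 2019 and 283 counts under IL-3, against 121 and 255 in its absence. Abl1-KO/IL3+ replicate 1 alone stood high, 6.02-fold above its own replicate in CPM, while the other 3 libraries had 2.53 to 5.21 CPM. The log2 fold change of -2.39 ± 0.94 (SE, edgeR adjusted p = 0.844) became -0.57 without that library. Gm49320, an annotated coding gene on the same strand, shares 1349 exonic bases with Map2k7, which is 35.2% of the exonic bases of Map2k7. Its counts ran the other way, with 0 in both libraries with IL-3 and 334 and 231 without it. Summed over both genes, the counts were 2019 and 283 under IL-3, against 455 and 486 in its absence, or 31.3 and 5.21 against 9.51 and 8.37 CPM, and the groups overlapped. The log2 fold change of the sum was -1.03 ± 0.87 (SE, edgeR adjusted p = 0.924). The reads of Map2k7 are therefore uncertain, and with the sum in its place 5 of the 9 genes were lower without overlap, against 17.9% of all genes.

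Mapkapk2 (MK2), on chromosome 1 from 131053700 to 131097826, had the highest FPKM of the set in every library. It had 22334 and 15798 counts under IL-3, against 7751 and 11410 in its absence, or 346 and 291 against 162 and 197 CPM. The libraries within a group differed by 1.19-fold and 1.21-fold, and the lowest library with IL-3 stood 1.48-fold above the highest without it. The mean CPM without IL-3 was 56.3% of that with IL-3, a log2 fold change of -0.83 ± 0.32 (SE, edgeR adjusted p = 0.841). Mapkapk3, its close relative with the same activator, had 21437 and 8674 counts under IL-3, against 5222 and 9195 in its absence (log2 fold change -0.88, edgeR adjusted p = 0.872).

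On the FPKM scale, which allows genes to be ranked, the order with IL-3 was Mapkapk2, Mapk14, Map2k3, Map2k4, Mapk13, Map2k7, Mapk8, Mapk9 and Mapk11. Mapkapk2 had a mean of 93.1 ± 23.4 FPKM (SD, n = 2), Mapk14 of 39.98 ± 20.01 and Map2k3 of 25.9 ± 8.08. The neighbours Mapk14 and Map2k3, Map2k3 and Map2k4, and the run from Mapk13 to Mapk9 had overlapping ranges, so their order is within the spread of replicates. Without IL-3 the order was Mapkapk2 (52.7 ± 10.1 FPKM), Map2k4 (14.4 ± 1.71), Mapk14 (10.3 ± 13.7), Map2k3 (9.82 ± 0.0691), Mapk13, Mapk8, Mapk9, Map2k7 and Mapk11. There Map2k4, Mapk14 and Map2k3 overlapped in turn because of the wide spread of Mapk14, as did Mapk8 and Mapk9. Map2k4 stood above Map2k3 in both libraries without IL-3, at 13.2 and 15.6 FPKM against 9.77 and 9.87, while with IL-3 they were near equal in replicate 1 and Map2k3 was above in replicate 2.

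To place the set in its cascades, 11 lists of 104 gene names were used, of which 98 were in the table, 3 were older names of genes already listed and 3 were not analysed here. The filter kept 92 of the 98, the set included. None had an adjusted p-value under 0.05 in edgeR, and 9 had an unadjusted one (3 higher and 6 lower in cells without IL-3, against 2.56% and 3.36% of all genes). DESeq2 called 5 of the 92, where it called 1.64% of all genes. Mapk11, among the 5, passed the filter only through the libraries with IL-3. Of the 83 tested genes outside the set, 22 were lower without overlap and 15 higher, where 17.9% and 19.4% of all genes were, and their median log2 fold change was -0.21. With scaling by library size alone 16 were lower and 17 higher, so the balance of these counts turned with the scaling (15.5% and 21.5% of all genes). By list, the 11 tested phosphatases listed as switching off p38 and JNK had a median of -0.34. Of these, 6 genes were lower without overlap and 0 higher, and 4 were lower by library size alone. The 6 were Dusp4, Dusp7, Dusp10, Ppm1a, Ppm1b and Ppm1d, so not only DUSP genes. How specific each phosphatase is to p38 and JNK was not tested. The 9 MAP4 kinases and small GTPases tested had a median of -0.49, with 4 lower and 0 higher, and 2 lower by library size alone. The 21 MAP3 kinases and their partners had a median of -0.17, with 5 lower and 2 higher, and the 6 scaffolds a median of 0.19, with 1 lower and 1 higher, and 4 higher by library size alone. For the 6 other kinases activated by p38 the median was -0.67, with 2 lower and 0 higher, and 1 lower by library size alone. In the other direction, the 17 transcription factors phosphorylated by p38 or JNK had a median of 0.18, with 6 genes higher without overlap and 3 lower. The 9 effectors of the MK2 branch and of AU-rich mRNA control had a median of 0.56, with 5 higher and 0 lower, and 4 higher by library size alone, where Zfp36l2 overlapped. The 3 GADD45 stress sensors had a median of 0.0023, with 1 higher and 0 lower.

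**Figure D4:**
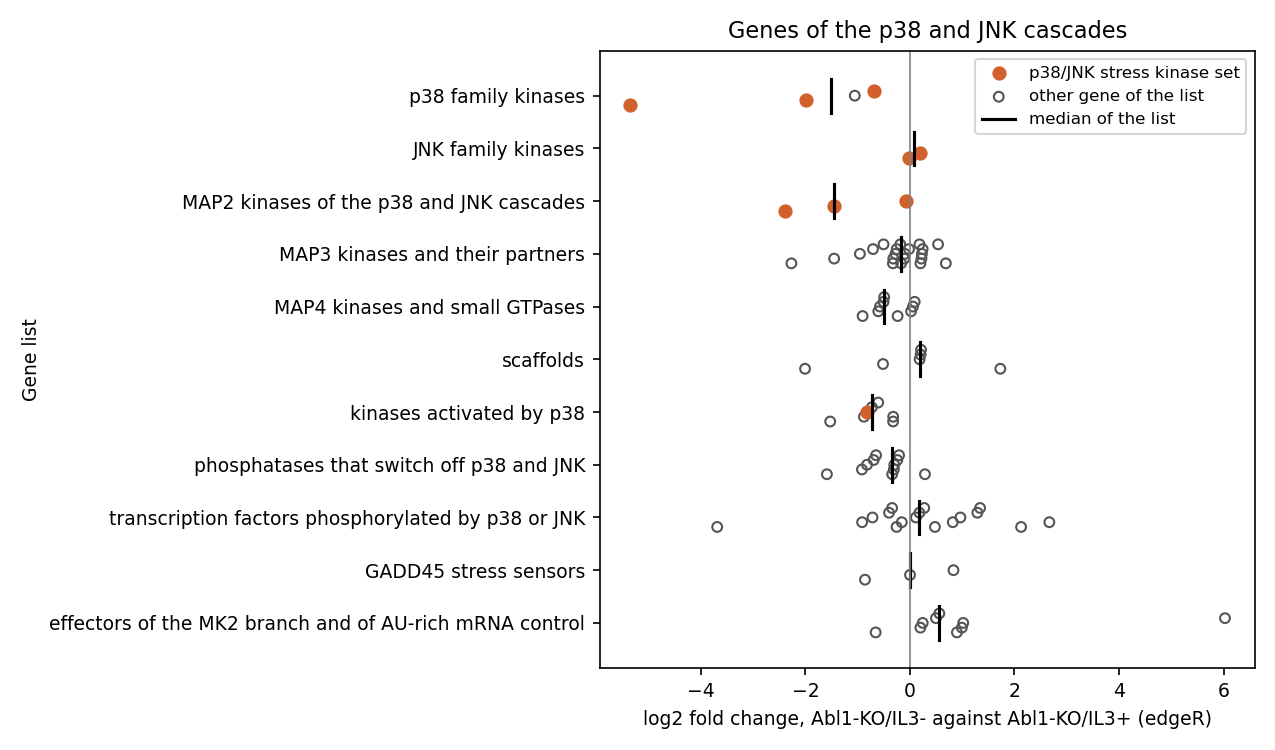
log2 fold change from edgeR in Abl1-KO/IL3- against Abl1-KO/IL3+ cells for the 92 tested genes of 11 lists, 1 list per line, with the stress kinase set in filled orange, other genes as open circles and a bar at each list's median. The leftmost point is Mapk11, whose fitted value depends on the prior count because it had 0 counts without IL-3. The medians run from -1.52 for the 4 p38 kinases to 0.56 for the effectors of the MK2 branch. The p38 list includes Mapk14, whose values selected the set, and Mapk11, which passed the filter only through the libraries with IL-3. Nothing is therefore read from the median of this list. Mapk12, its 1 gene outside the set, had -1.05.

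Among the transcription factors, Mef2d, Creb1 and Ddit3 had an unadjusted p under 0.05. Mef2d, a MADS-box factor and a direct p38 substrate, had 4073 and 1681 counts under IL-3, against 163 and 223 in its absence (log2 fold change -3.69 ± 0.52 SE, edgeR adjusted p = 0.532, DESeq2 adjusted p = 2.65e-08). Creb1, a factor reached through kinases downstream of p38, had 286 and 481 counts under IL-3, against 2061 and 2416 in its absence (log2 fold change 2.67 ± 0.48 SE, edgeR adjusted p = 0.692, DESeq2 adjusted p = 0.000228). Ddit3, or CHOP, a stress factor that p38 phosphorylates, had 1223 and 1598 counts under IL-3, against 2747 and 3541 in its absence (log2 fold change 1.29, edgeR adjusted p = 0.727). Ddit3 shares 105 exonic bases with another gene of the same name. Jund, the most abundant AP-1 gene of the list, had 49.3 and 63.8 FPKM under IL-3, against 72.9 and 89.8 in its absence, and 52.6% of its exonic bases lie opposite an antisense gene. Trp53, the p53 gene, had 49.8 and 80.0 FPKM under IL-3, against 36.5 and 34.9 in its absence. Jun itself was near the floor, with 0 and 4 counts under IL-3, against 8 and 15 in its absence.

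Upstream, Taok3, a MAP3 kinase of the stress branches, had 6583 and 2131 counts under IL-3, against 502 and 1092 in its absence (log2 fold change -2.27 ± 0.61 SE, edgeR adjusted p = 0.727, DESeq2 adjusted p = 0.0407). Tab2 and Tab1, adaptors of the MAP3 kinase TAK1, had overlapping groups, at 17.4 to 28.1 FPKM and 7.71 to 11.4 FPKM. Rac2, the hematopoietic Rac GTPase, had 360 and 311 FPKM under IL-3, against 205 and 275 in its absence, while Cdc42 overlapped at 90.6 to 120 FPKM. Among scaffolds, Mapk8ip2, which holds JNK modules together, had 53 and 82 counts under IL-3, against 12 and 16 in its absence (log2 fold change -2.01, edgeR adjusted p = 0.827). Arrb2 and Flna overlapped in CPM. Dusp7, a MAPK phosphatase, had 687 and 516 counts under IL-3, against 138 and 219 in its absence (log2 fold change -1.59 ± 0.45 SE, edgeR adjusted p = 0.727). Ptpn7, a tyrosine phosphatase of MAPKs in blood cells, had its low library where Mapk14 did, with 7386 and 8033 counts under IL-3, against 1475 and 7630 in its absence. Ppm1b had 116 and 90.4 CPM under IL-3, against 88.9 and 89.9 CPM in its absence.

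Downstream of MK2, Cxcl2, which encodes a neutrophil chemokine with an unstable mRNA, had 19 and 33 counts under IL-3, against 130 and 3504 in its absence (log2 fold change 6.03 ± 1.63 SE, edgeR adjusted p = 0.727, DESeq2 adjusted p = 5.13e-05). Its high library, Abl1-KO/IL3- replicate 2, is the one in which the neutrophil markers summed to 5924 CPM and the macrophage markers to 725 CPM. Ier3, an immediate early stress gene, had 47.5 and 48.4 FPKM under IL-3, against 67.9 and 133 FPKM in its absence. Zfp36l2, whose protein binds AU-rich mRNAs, had 52.8 and 39.4 FPKM under IL-3, against 50.9 and 55.5 in its absence, which overlap, although its TMM-scaled CPM of 194 and 173 lay below 210.1 and 212. Gadd45a, a damage-induced activator of the MAP3 kinase Map3k4, had 22.7 and 20.6 FPKM under IL-3, against 30.5 and 48.3 in its absence, and 19.1% of its exonic bases lie opposite another gene. Gadd45g followed the replicate number, with 12.3 and 23.8 FPKM under IL-3, against 12.3 and 26.0 in its absence. Among the kinases activated by p38, Mknk2 overlapped at 32.5 to 47.6 FPKM.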

How the data were processed

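RNA was depleted of ribosomal RNA and sequenced on an Illumina HiSeq. Per the paper's methods, the authors aligned reads to GRCm38 with Rsubread, and summarised them with featureCounts, with mm10 annotation. The submitters' processing notes name STAR, Cuffdiff and mm10. The authors deposited whole-number counts per gene, and which of these tools made them is not given in the sources used here. The authors also deposited FPKM values, whose tool, like versions and strand setting, is not given in the sources used here.

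Groups and replicate numbers came from the sample titles. Counts were filtered with filterByExpr, scaled by TMM and tested with edgeR 4.0.16 (quasi-likelihood, two-sided, Benjamini-Hochberg, threshold 0.05, prior count 2) in R 4.3.3. This step was also run on simulated counts with low spread between replicates. Such a run cannot show how it performs at the wider spread of these replicates. Standard errors came from the fold change and F statistic. Alternatives were DESeq2 1.42.0, limma 3.58.1 on log2(FPKM + 1) and log2(FPKM + 0.1), library size only, other filters, a replicate block and leaving out each library. The members and lists were chosen with earlier results of these data known. The genes named were the set, Mapk12, Abl1, list genes with an unadjusted p under 0.05, the 2 most abundant of each list, the 5 neighbours on either side of Mapk14 and the 5 nearest profiles. Mapkapk3, Jun, Gm49320 and genes nearly absent from a library were added after their values were seen. Floors cover counting error only.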

Additional observations from a re-analysis of the deposited data

How the results depend on the processing

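The number of genes called was 0 in edgeR (978 unadjusted), 271 in DESeq2, and 0 to 22 when each library was left out. The 22 came without Abl1-KO/IL3- replicate 1, and the lone library of a group is then assumed to vary like the others. For the stress kinase set it was 0 in edgeR, 1 in DESeq2 (Mapk11, which passed the filter only through the libraries with IL-3) and 0 without any 1 library. For the genes of the cascade lists it was 0, 5 and 0 to 1, the 1 being Cxcl2. Under a replicate block, 0 genes were called and 548 had an unadjusted p under 0.05. Deviations of same-numbered libraries correlated at -0.194 across genes, so the pairing was also crossed after seeing the data, with 0 calls. Neither pairing changed a call in the set. With 10 counts in every library, Mapk11 dropped out.

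The number of genes lower without overlap was 6 of 9, 5 with library size only, 5 with Map2k7 summed with Gm49320, 4 with both changes (17.9% of all genes, or 15.5% by library size), and 6 to 8 when each library was left out, where the share of all genes was 25.9% to 40.3%. Without Abl1-KO/IL3- replicate 1 it was 7, against 25.9% of all genes. For the list genes outside the set, the count by library size alone was added after seeing the data. Of 108 single-gene values under alternatives, 8 reversed in sign, all for Mapk8, Mapk9 or Map2k4, and Mapk11 passed the threshold in DESeq2. The cause was not tested. Mapk8 was 0.011 with library size only, 0.0056 with log2(FPKM + 1) and 0.014 with log2(FPKM + 0.1), and ran from -0.16 to 0.17 when each library was left out. Mapk9 then ran from -0.71 to 0.74, and Map2k4 from -0.38 to 0.36. Mapk14 ran from -5.85 to -1.03, and was -3.37 under the replicate block. Genes nearly absent from 1 library numbered 172 at 1/10, 354 at 1/5 and 94 at 1/20. With 2 libraries a group, no sample could be tested as an outlier.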

Other observations

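Other well expressed genes were also nearly absent from Abl1-KO/IL3- replicate 1, the library in which Mapk14 was low. Adam10, which encodes a membrane sheddase, had 19751 and 5722 counts under IL-3, against 176 and 9120 in its absence. Chtf8, a subunit gene of a sliding clamp loader, had 7836 and 11128 counts under IL-3, against 74 and 6791 in its absence. Galnt6, which encodes an enzyme of O-glycosylation, had 14823 and 8288 counts under IL-3, against 635 and 16544 in its absence. B3gnt2, which encodes a glycosyltransferase, had 15385 and 5774 counts under IL-3, against 20 and 3528 in its absence. These genes lie on chromosomes 9, 8, 15 and 11, and they were chosen after their values were seen, as genes with a high level in the other 3 libraries.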
